A study of Mus musculus with 2 samples.

Results

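The microRNAs (miRNAs) of the miR-17-92 cluster and of its paralog clusters miR-106b-25 and miR-106a-363 were followed in microvesicles released by mouse 3T3-L1 adipocytes. The members were taken by name, as the 10 array entries mmu-miR-17, mmu-miR-18a, mmu-miR-19a, mmu-miR-19b, mmu-miR-20a, mmu-miR-92a, mmu-miR-106a, mmu-miR-106b, mmu-miR-93 and mmu-miR-25 (written below without mmu-), out of 567 mouse miRNAs on the array. The rule itself uses names alone. 3T3-L1 is an established line of mouse preadipocytes that fills with lipid after hormonal induction. The cells grew in high-glucose DMEM with 10% FCS and were induced with 3-isobutyl-1-methylxanthine at 0.5 mM, dexamethasone at 0.25 µM and insulin at 10 µg/ml, in both groups alike. Vesicles were pelleted by ultracentrifugation from medium that the cells had conditioned for 48 h, in the later group from day 8 to day 10 and in the earlier group from day 2 to day 4. Trizol RNA, 100 ng labelled with Cy3, was hybridised to 1 array per window.

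With 1 array in each window there was no replicate and no test, and no p-value is given. The standard errors (SE) and standard deviations (SD) below are between spots of an array and are technical only. The number of arrays limits the precision. Window, culture, vesicle preparation and array cannot be told apart, and both arrays lay on 1 slide with 1 scan. Signals of cell RNA and of RNA from the serum in the medium cannot be told apart either. An array signal follows a miRNA's share of the labelled RNA, so fewer vesicles with that miRNA and less of it in each vesicle cannot be told apart.

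A miRNA guides the Argonaute protein to messenger RNAs that pair with its seed, bases 2 to 8, and those messengers are then repressed. The miR-17-92 cluster is 1 transcript, driven by the oncogene product Myc, that is cut into several miRNAs of different seeds. Its miR-17 seed group represses the cell cycle inhibitor Cdkn1a and the pro-apoptotic Bcl2l11, and its miR-92 group represses the integrin subunit Itga5. The cluster has been reported to promote fat cell formation in 3T3-L1 cells through the retinoblastoma relative Rbl2, while miR-106b and miR-93 have been reported to restrain brown adipocyte formation. miR-106b, miR-93 and miR-25 are cut from an intron of Mcm7, a gene of the replicative helicase.

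The mature sequences show which members can share targets and which can share probe signal. All 10 members matched a RefSeq mature miRNA (GRCm38.p6). They are written 5′ to 3′, with the seed in capitals. 4 seeds were found among them, and the first was held by 5 members:
miR-17: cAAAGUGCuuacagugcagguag
miR-20a: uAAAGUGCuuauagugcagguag
miR-106a: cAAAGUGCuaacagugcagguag
miR-106b: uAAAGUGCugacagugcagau
miR-93: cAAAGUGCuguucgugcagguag
miR-18a: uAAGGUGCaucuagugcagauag
miR-19a: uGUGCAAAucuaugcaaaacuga
miR-19b: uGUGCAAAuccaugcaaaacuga
miR-25: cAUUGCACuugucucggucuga
miR-92a: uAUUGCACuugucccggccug
miR-18a has a seed of its own, 1 base from that of the miR-17 group, while miR-19a and miR-19b share a seed and so do miR-25 and miR-92a. The near-identical pairs among them matter for the array. miR-17 and miR-106a differ at 1 base and miR-19a and miR-19b at 1 base, and miR-17 and miR-20a differ at 2 bases. In the RefSeq table, miR-19b and miR-92a each come from 2 genes, on chromosomes 14 and X, with the same mature sequence, so the array cannot tell these copies apart.

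Per the files, the probes of miR-17, miR-18a, miR-19a, miR-20a, miR-19b and miR-92a lie in that order on chromosome 14, from miR-17 at 115442915 to 115442928 through to miR-92a at 115443702 to 115443718. The probes of miR-106b lie on chromosome 5 at 138607015 to 138607031, those of miR-93 at 138606802 to 138606817 and those of miR-25 at 138606560 to 138606577. Those of miR-106a lie on chromosome X at 50095718 to 50095732. No source used here names the genome build of these positions. The RefSeq gene table places the chromosome 5 members within Mcm7.

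Each member had 2 probes, and each probe covers the 3′ part of its miRNA. The longest covered stretch, in capitals, is shown for the detected miR-106b and miR-20a and for the undetected miR-17 and miR-106a:
miR-106b: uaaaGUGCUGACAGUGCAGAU
miR-20a: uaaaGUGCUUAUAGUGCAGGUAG
miR-17: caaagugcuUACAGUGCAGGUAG
miR-106a: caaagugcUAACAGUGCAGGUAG
The probes of miR-17 span 13 and 14 bases and those of miR-106a 14 and 15 bases. miR-17 and miR-106a share their last 13 bases, and the files list the 13-base probe for both names. miR-20a has probes of 18 and 19 bases and miR-106b of 16 and 17 bases. miR-20a shares its last 11 bases with miR-17 and its last 13 with miR-20b of the chromosome X cluster.

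Of the 10 members, 7 (70%) gave a detected signal at day 8-10 and 6 (60%) at day 2-4. Detection of a probe meant that over 0.5 of its spots carried the scanner software's flag for well above background, and 1 such probe was enough for a miRNA. Over all mouse miRNAs the shares were 29.3% at day 8-10 and 27.5% at day 2-4. miR-106b, miR-19b, miR-20a, miR-93, miR-25 and miR-92a were detected in both windows, miR-19a by this rule at day 8-10 alone, and miR-17, miR-106a and miR-18a in neither. No member spot was saturated, and 6 member spots on each array were left out as outliers. Negative control spots averaged -0.326 ± 1.02 intensity units on the day 8-10 array (SD, n = 656 spots) and -0.288 ± 0.983 on the day 2-4 array (SD, n = 660 spots). The highest such spot was 2.83 at day 8-10 and 2.70 at day 2-4.

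Signals are given first as the scanner's processed intensity per spot, and the differences after scaling. Each array was divided by the 75th percentile of the 279 probes that both arrays detected, 95.2 intensity units at day 8-10 and 108 at day 2-4. The scaling therefore adds 0.19 to every log2 difference of day 8-10 minus day 2-4. An alternative took the 75th percentile over all mouse probes, of which 19.6% were detected at day 8-10 and 18.4% at day 2-4. That percentile thus lies near or below the limit of detection. To count as higher or lower, a miRNA detected in both windows had to change 2-fold or more and by over 2 spot SE.

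**Figure D1:**
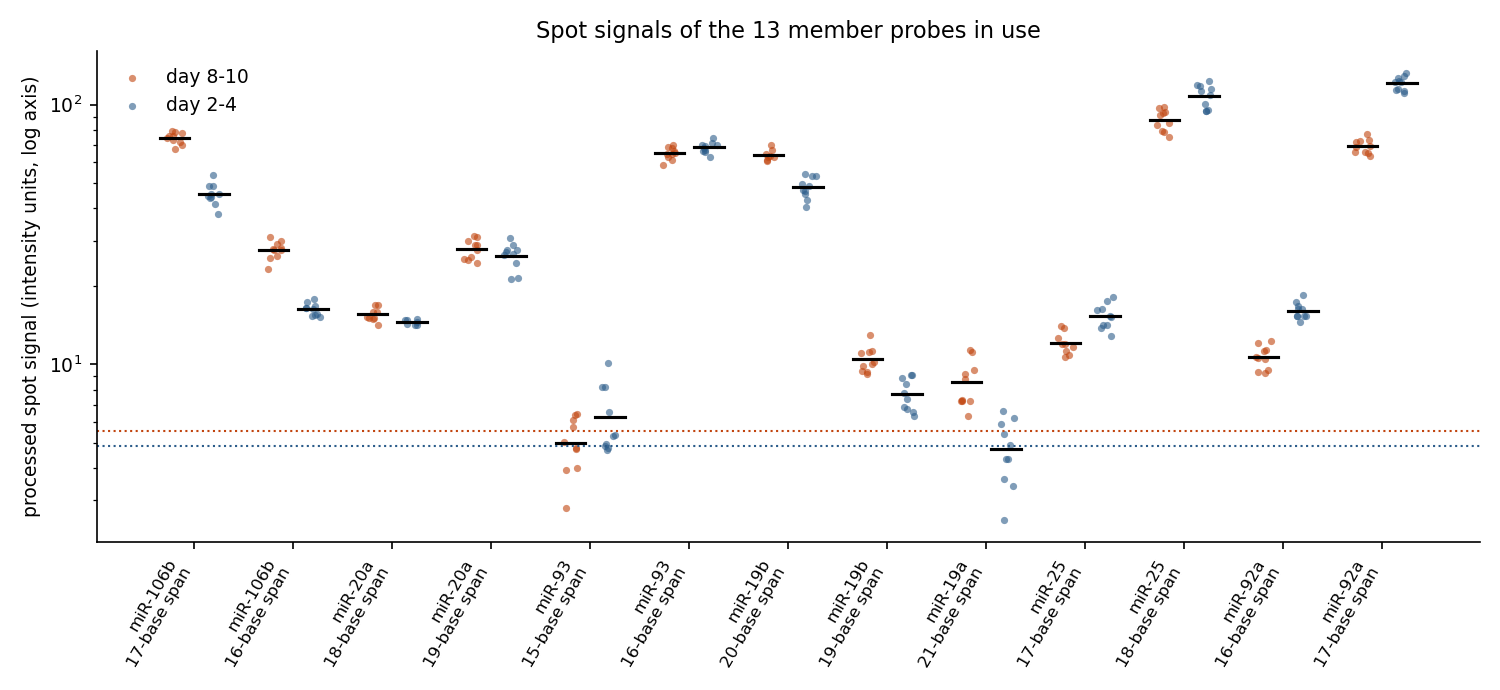
Processed spot signals in intensity units on a log axis, before scaling, for the 13 member probes in use, day 8-10 left of day 2-4 for each probe. Points are spots, black lines are means and dotted lines are each array's lowest detected probe (5.55 at day 8-10, 4.86 at day 2-4). Both miR-106b probes and both miR-19b probes are brighter at day 8-10, and both miR-92a probes are dimmer.

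The miR-17 seed group did not move as a block. miR-106b was 1.90-fold higher in day 8-10 vesicles, just short of 2-fold, whereas miR-20a was 1.21-fold and miR-93 1.08-fold higher, and miR-17 and miR-106a were not detected. miR-106b, the leading miRNA of the Mcm7 cluster, gave spots from 67.5 to 79.2 (median 75.1) at day 8-10, against 37.9 to 53.4 (median 44.9) at day 2-4 on its 17-base probe. Its 16-base probe gave 23.3 to 30.9 (median 27.7) at day 8-10, against 15.3 to 17.8 (median 16.4) at day 2-4. On both probes every day 8-10 spot was above every day 2-4 spot. Such a lack of overlap before scaling, either way, held for 64.5% of the 279 probes detected on both arrays. The scaled log2 difference was 0.92 (spot SE 0.033), with 0.90 and 0.94 for the probes, and ranked 27th of the 145 miRNAs detected on both arrays. Under 16 alternative processings it stayed positive, from 0.39 with normexp background correction to 0.93. The normexp setting adds an offset of 50, which compresses low intensities. With local background subtracted the difference was 0.82.

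miR-20a, the miR-17 seed member of the chromosome 14 cluster that was detected, was 1.21-fold higher at day 8-10 after scaling, beyond 2 spot SE. Its 19-base probe had spots from 24.5 to 31.2 (median 28.2) at day 8-10, against 21.3 to 30.7 (median 26.8) at day 2-4. Its 18-base probe averaged 15.6 ± 0.945 at day 8-10 (SD, n = 9 spots) and 14.5 ± 0.340 at day 2-4 (SD, n = 7 spots). The unscaled spots of both probes overlapped between the windows. The scaled log2 difference was 0.28 (spot SE 0.037), and it turned negative under 3 alternative normalizations, down to -0.23.

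miR-93, the neighbour of miR-106b in Mcm7, did not differ beyond 2 spot SE. Its 16-base probe had spots from 58.8 to 70.1 (median 65.0) at day 8-10, against 62.9 to 74.3 (median 69.0) at day 2-4. Its 15-base probe was near the limit, with 4 of 10 spots well above background at day 8-10 and 6 of 10 at day 2-4. Before scaling both probes were slightly dimmer at day 8-10. The 15-base probe averaged 4.99 at day 8-10, under that array's lowest detected probe (5.55), to which dimmer spots were raised. After this floor and scaling the log2 difference of miR-93 was 0.11 (spot SE 0.066), with an interval of 2 SE from -0.021 to 0.24. It was negative under 8 of the 16 alternatives, among them the one with no floor.

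miR-17 and miR-106a gave no spot well above background on either array. miR-17, whose name the cluster carries, averaged 0.311 ± 1.20 at day 8-10 and 0.0216 ± 0.873 at day 2-4 on its 13-base probe (SD, n = 10 spots each). On its 14-base probe it averaged 0.421 ± 0.987 at day 8-10 (SD, n = 9 spots) and 1.07 ± 1.01 at day 2-4 (SD, n = 10 spots). The miR-106a probes averaged 0.468 and 0.967 at day 8-10 and 0.397 and 0.250 at day 2-4, for spans of 14 and 15 bases. All these spots stayed within the range of the negative controls, whose highest values are given above. The software's looser flag, positive and significant, was set for 5 of 10 spots of the 14-base miR-17 probe at day 2-4. It was also set for 5 of 10 spots of the 15-base miR-106a probe at day 8-10. For the other probes and windows of these miRNAs it was set for 1 to 4 spots. No fold is given for either miRNA. These probes span fewer bases than those of the detected miR-20a and miR-106b. The 15-base probe of miR-93, as long as the longer miR-106a probe, was detected at day 2-4 and not at day 8-10. Over all mouse probes that span 13 to 15 bases, 15.6% were detected at day 8-10 and 15.4% at day 2-4. For 16 to 18 bases the share was 18.2% at day 8-10 and 17.2% at day 2-4. For 19 to 21 bases it was 22.4% at day 8-10 and 19.7% at day 2-4. At 13 bases alone it was 21.7% at day 8-10 and 20.3% at day 2-4, and at 14 bases 12.8% and 12.2%. At 15 bases it was 13.2% at day 8-10 and 14.4% at day 2-4. At 10 bases, shorter than any member probe, 33.3% of the 30 probes were detected in each window. The part of probe length in the missing miR-17 and miR-106a signal was not tested, and the arrays give a limit of detection for miR-17 and not its absence from the vesicles.

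miR-18a, which is known to repress the matricellular gene Ctgf (Ccn2), stood between background and detection. Its 19-base probe averaged 3.62 ± 0.596 at day 8-10 and 4.17 ± 0.641 at day 2-4 (SD, n = 9 spots each). Its 18-base probe averaged 1.76 ± 1.19 at day 8-10 (SD, n = 10 spots) and 0.731 ± 0.642 at day 2-4 (SD, n = 8 spots). The probes thus leaned opposite ways. The software's looser flag, positive and significant, was set for 9 of 9 spots of the 19-base probe on each array, but the well-above-background flag for 0 at day 8-10 and 1 at day 2-4. The software's own gene signal, which is not the plain sum of these probe means, was flagged as detected in both windows. It was 3.59 ± 1.05 at day 8-10 and 3.24 ± 1.02 at day 2-4 (software error).

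**Figure D2:**
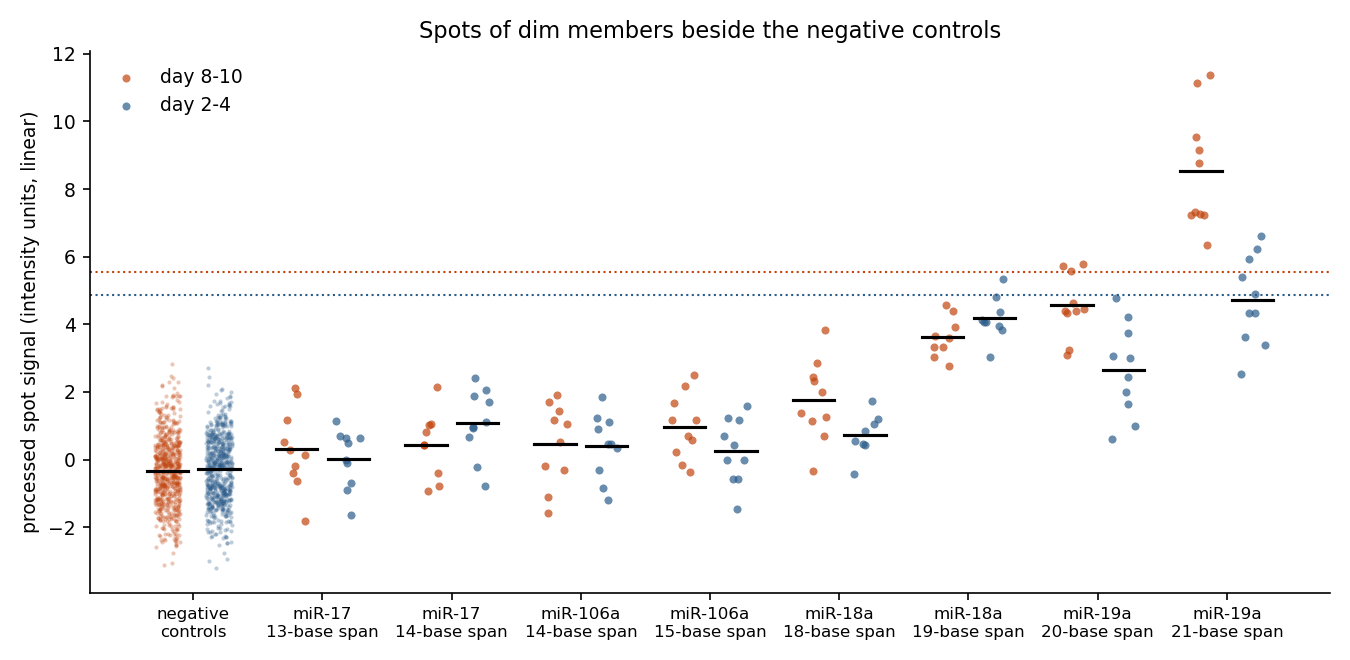
Processed spot signals in intensity units on a linear axis for the negative controls and for the probes of miR-17, miR-106a, miR-18a and miR-19a, day 8-10 left of day 2-4. Points are spots, black lines are means and dotted lines are each array's lowest detected probe. The miR-17 and miR-106a spots lie among the negative controls, the 19-base miR-18a probe lies above most of them, and the 21-base miR-19a probe clears the limit at day 8-10.

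The miR-19 pair gave higher signals in day 8-10 vesicles on the probes in use. For miR-19b the difference was below 2-fold, and for miR-19a only a lower bound can be given. The 20-base probe of miR-19b had spots from 60.7 to 70.2 (median 63.2) at day 8-10, against 40.4 to 54.2 (median 47.7) at day 2-4. Its 19-base probe had 9.17 to 12.9 (median 10.2) at day 8-10, against 6.31 to 9.14 (median 7.56) at day 2-4. On both probes the spots of the windows did not overlap, as for 64.5% of all probes detected on both arrays. The scaled log2 difference of miR-19b was 0.62 (spot SE 0.048), or 1.54-fold, ranking 39th of 145, with 0.61 and 0.63 for the probes. It stayed positive under all 16 alternatives but came down to 0.11 with the 75th percentile taken over all mouse probes, most of them undetected.

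miR-19a passed the detection rule at day 8-10 alone. On its 21-base probe the spots ran from 6.35 to 11.4 (median 8.04) at day 8-10, with 10 of 10 well above background, against 2.53 to 6.60 (median 4.61) at day 2-4, with 4 of 10 well above it. In the main processing its day 8-10 signal was at least 1.80-fold higher (log2 0.85). This bound sets the day 8-10 signal against the day 2-4 spots, with any spot under that array's detection limit raised to it. It is no bound across processings, since the log2 difference was 0.34 with the 75th percentile over all mouse probes, 0.38 over probes detected on either array, 0.38 with quantile normalization and 0.20 with normexp. The software's gene signal was 8.73 ± 1.21 at day 8-10 and 4.88 ± 1.04 at day 2-4 (software error) and was flagged as detected in both windows. With a single spot enough for detection, miR-19a was detected in both windows too. The 20-base probe was not detected in either window, averaging 4.56 ± 0.935 at day 8-10 and 2.65 ± 1.37 at day 2-4 (SD, n = 10 spots each). The mature forms of miR-19a and miR-19b share their last 12 bases, so their probes may share signal.

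The miR-25/92 seed pair had lower scaled signals in day 8-10 vesicles. miR-92a was 1.43-fold lower and miR-25 1.10-fold lower. On the 17-base probe of miR-92a the spots ran from 63.5 to 77.3 (median 69.0) at day 8-10, against 111 to 132 (median 123) at day 2-4. Its 16-base probe had 9.28 to 12.3 (median 10.6) at day 8-10, against 14.5 to 18.5 (median 15.9) at day 2-4. Every day 8-10 spot of miR-92a was below every day 2-4 spot of the same probe. Of all probes detected on both arrays, 64.5% had no overlap, in either direction. The scaled log2 difference was -0.51 (spot SE 0.035), at rank 117 of 145, with -0.62 and -0.41 for the probes. It was negative under all 16 alternatives, from -1.02 with the 75th percentile over all mouse probes to -0.19 with normexp.

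miR-25, the last miRNA of the Mcm7 cluster, differed less. Its 18-base probe had spots from 75.4 to 98.3 (median 88.0) at day 8-10, against 94.3 to 123.9 (median 111) at day 2-4. Its 17-base probe averaged 12.1 ± 1.21 at day 8-10 (SD, n = 9 spots) and 15.4 ± 1.68 at day 2-4 (SD, n = 10 spots). The spots of the windows overlapped on both probes. The scaled log2 difference of -0.14 (spot SE 0.047) was negative under all 16 alternatives, from -0.65 to -0.025.

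**Figure D3:**
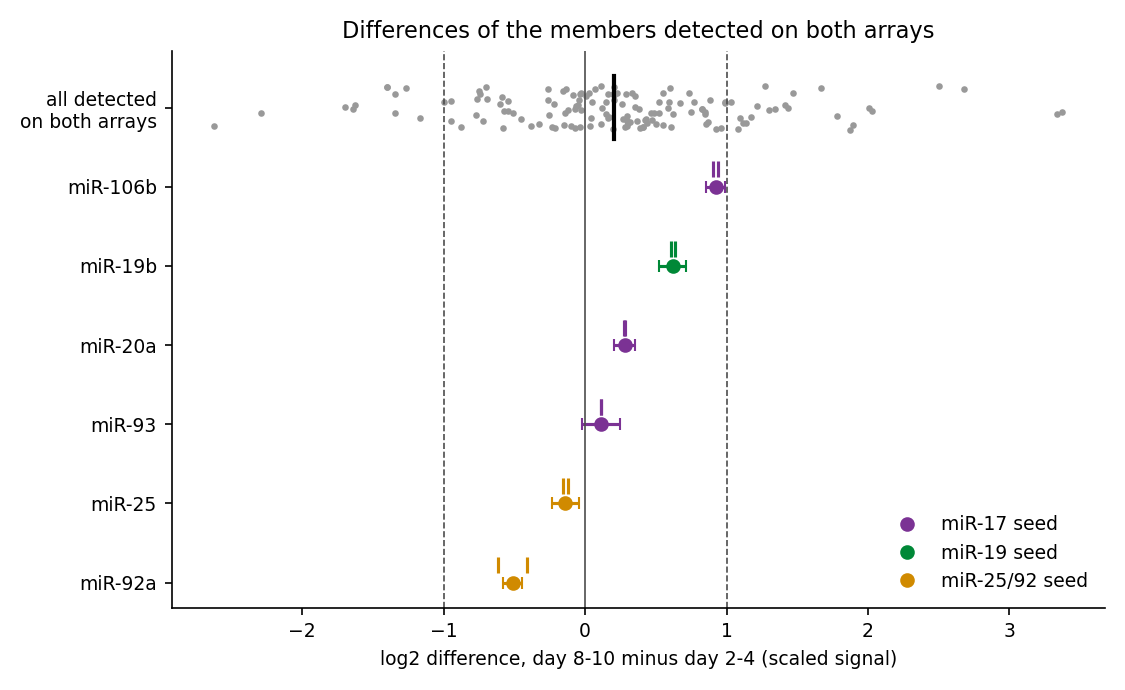
Log2 differences of scaled signal, day 8-10 minus day 2-4, for the 6 members detected on both arrays, coloured by seed, and in grey for all 145 miRNAs detected on both arrays with their median as a black bar. Points are means over probes, bars are 2 spot SE either way, short ticks are single probes and dashed lines mark 2-fold. miR-106b is highest and miR-92a lowest, and none of the 6 passes 2-fold.

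Products of the same cluster differed from each other. Such contrasts do not depend on any single scale factor, since it cancels between miRNAs of the same arrays. The pairs named here were chosen after their values were seen. Within Mcm7, the difference of miR-106b exceeded that of miR-25 by 1.06 on the log2 scale (spot SE 0.057), a 2.09-fold ratio of folds, and that of miR-93 by 0.81 (spot SE 0.074), a 1.76-fold ratio. Within the chromosome 14 cluster, the difference of miR-19b exceeded that of miR-92a by 1.13 (spot SE 0.059), a 2.19-fold ratio, and that of miR-20a exceeded it by 0.79 (spot SE 0.051). miR-106b and miR-92a stood farthest apart, by 1.44 (spot SE 0.048). Because miR-92a and miR-19b also have a copy on chromosome X, the chromosome 14 contrast may mix both loci. With normexp these contrasts shrank to 0.42 for miR-106b over miR-25, 0.44 for miR-19b over miR-92a and 0.58 for miR-106b over miR-92a.

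From high to low the differences ran miR-106b, miR-19b, miR-20a, miR-93, miR-25 and miR-92a. All 15 pairs of members differed by more than 2 spot SE, which covers noise between spots only. The spot SE leaves out gaps between probes of a miRNA, as for miR-92a with -0.62 and -0.41, so close neighbours are not firmly ordered. The closest neighbours were miR-20a and miR-93, 0.17 apart (spot SE 0.076). miR-93 and miR-25 were 0.25 apart, miR-106b and miR-19b 0.30, miR-19b and miR-20a 0.34, and miR-25 and miR-92a 0.37. The order was the same under 15 of 16 alternatives, and quantile normalization exchanged miR-93 and miR-25. It did not sort by cluster, since the Mcm7 products held the first, the fourth and the fifth place. The miR-25/92 seed pair held the lowest 2 places except under quantile normalization.

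**Figure D4:**
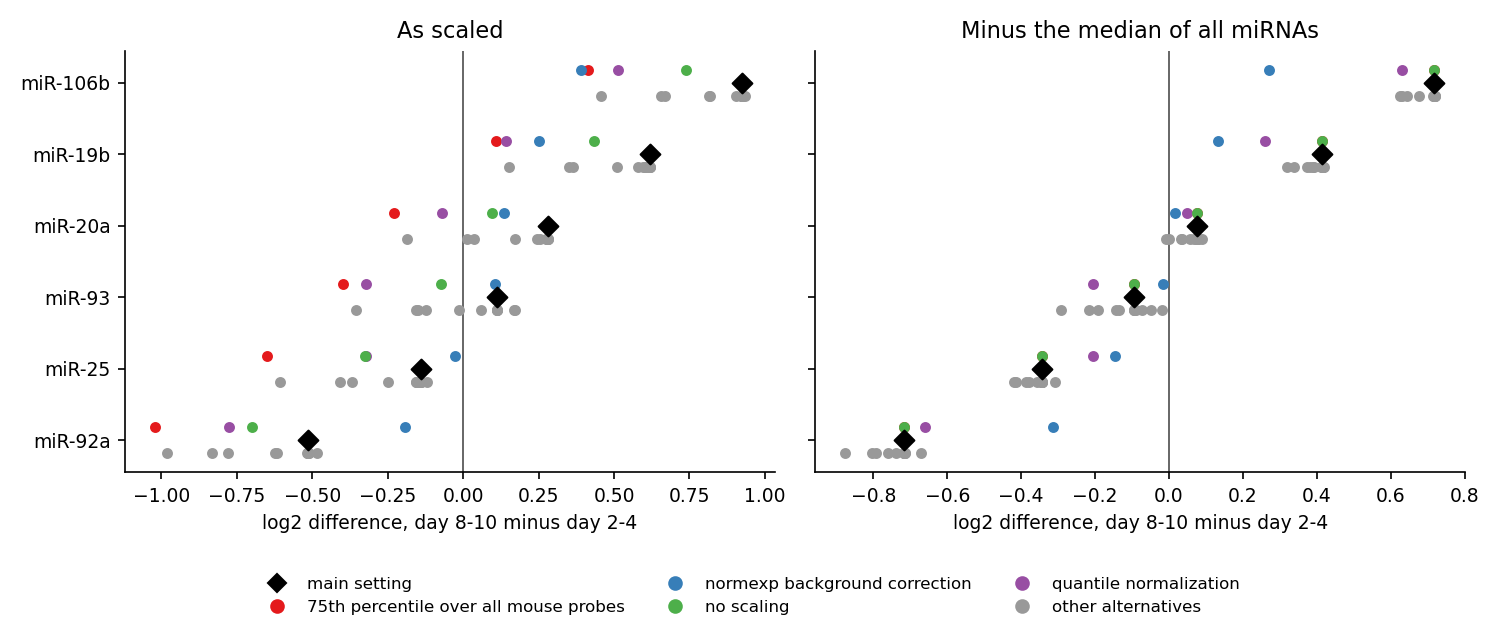
Log2 differences, day 8-10 minus day 2-4, of the 6 members under the main processing (black diamonds) and 16 alternatives, as scaled on the left and after subtraction of the median over all miRNAs of the same processing on the right. On the left miR-20a and miR-93 fall on both sides of 0, while miR-106b and miR-19b stay above it and miR-25 and miR-92a below it. On the right the values of a member lie closer together, apart from normexp.

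As a set the 6 members detected on both arrays lay in the middle of the vesicle profile. None was at least 2-fold higher at day 8-10, where 15.9% of the 145 miRNAs were, and none was at least 2-fold lower, where 7.59% were. Either way it was 0 of 6 members against 23.4% of all. The difference was above 0 for 4 members and below 0 for 2, and above 0 for 62.8% of the 145. The members' median log2 difference was 0.20, and that of the 145 miRNAs was also 0.20, with quartiles of -0.22 and 0.73. 4 of the 6 members lay between these quartiles, with miR-106b above and miR-92a below. Relative to the median of all, miR-106b stood at 0.72, miR-19b at 0.41, miR-20a at 0.075, miR-93 at -0.094, miR-25 at -0.34 and miR-92a at -0.72. With the 75th percentile over all mouse probes the members' median became -0.31 and miR-92a passed 2-fold lower, while the median of all 145 became -0.30. Of the 11 member probes detected on both arrays, 7 had scaled spot ranges that did not overlap between the windows, against 64.2% of the 279 probes. Before scaling it was 6 probes, against 64.5%.

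Further products of the clusters were mostly undetected. Of 11 other array entries from the clusters, 8 of them passenger (star) strands, only miR-20b was detected. miR-20b, the miR-17 seed member of the chromosome X cluster, had a log2 difference of 0.44 (1.36-fold higher at day 8-10, spot SE 0.075) on 1 of its 2 probes. That probe averaged 11.3 ± 1.02 at day 8-10 (SD, n = 9 spots) and 9.55 ± 1.27 at day 2-4 (SD, n = 10 spots), and its unscaled spots overlapped between the windows. The difference turned to -0.068 with the 75th percentile over all mouse probes and to -0.026 over probes detected on either array. The last 13 bases of miR-20b are also those of miR-20a. Of the rest of that cluster on the array, miR-106a, miR-18b and miR-363 gave no detected probe. The detected miR-19b and miR-92a also have a gene copy there, whose part in their signal is not resolved. The entries with the miR-25/92 seed outside the clusters, miR-32, miR-92b and miR-367, were undetected too.

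Marker miRNAs were read on the same arrays beside the labelled cell type. The lists were chosen with earlier results of these data known, so they are no independent check of it. All 10 miRNAs of a list linked to adipocytes, among them miR-103 and miR-378, were detected in both windows, 8 of them at least 2-fold higher at day 8-10 and none at least 2-fold lower. Their summed scaled signal was 22.5 at day 8-10 and 8.55 at day 2-4. The marker counts are of the main processing, whose scaling adds 0.19 to every log2 difference, and were not made under the alternatives. In the adipocyte list miR-30c (log2 difference 1.03), miR-193 (1.08) and miR-30e (1.09) passed 2-fold narrowly. Like-named miRNAs outside the list changed less than 2-fold. Their log2 differences, day 8-10 minus day 2-4, were 0.83 for miR-148b, 0.61 for miR-30b, -0.034 for miR-193b and -0.097 for miR-30d. The marker counts can be set beside the whole vesicle profile, where 15.9% of the 145 miRNAs passed 2-fold upward and 7.59% downward. Of all mouse miRNAs, 29.3% were detected at day 8-10 and 27.5% at day 2-4. Of the 5 fibroblast-linked entries on the array, all were detected in both windows, and 2 were at least 2-fold lower at day 8-10 (miR-214 and miR-199a-5p). The rest of that list did not move 1 way, with log2 differences of -0.95 for miR-199b, 0.16 for miR-21 and 0.59 for miR-22. The sums of the fibroblast list were 28.2 at day 8-10 and 31.5 at day 2-4. Of 7 blood and serum miRNAs, 4 were detected at day 8-10 and 3 at day 2-4, with sums of 14.5 at day 8-10 and 14.0 at day 2-4, and miR-142-3p, miR-142-5p and miR-150 were undetected. The part of these shifts in the values of miR-106b, miR-19b and miR-92a was not tested.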

How the data were processed

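The values are spot intensities that the authors deposited. Agilent Feature Extraction 9.5.3.1 made them, per the file headers, as a linear processed intensity after background subtraction, with no scaling between arrays, so that dim spots can be negative. Raw and local background intensity, the software's gene signal and its error, and flags (deposited as scores of 0 or 1) were also used. The deposited series value table held the same processed intensity and was not used further.

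Each array held 12493 spots, 11340 of them for 1672 probes of 567 mouse miRNAs. Control spots and outlier spots (249 at day 8-10, 237 at day 2-4) were left out. Spots were divided by the array's 75th percentile over probes detected on both arrays, floored at the array's lowest detected probe, log2 transformed and averaged per probe. Probes detected on either array were averaged per miRNA. Python 3.11.15, pandas 2.3.3, and limma 3.58.1 for normexp (offset 50) were used. The calculation was tested on simulated arrays. Probe spans were read from the files' positions, whose shared end lay at 1 constant distance per chromosome from the RefSeq 3′ end for 20 of 21 entries.

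All 10 members are named with their values, with their other cluster products, passenger strands and seed relatives. The members, the marker lists and the tests were chosen with earlier results of these data known. The alternatives concerned scaling, background correction, probe summary, dim-probe filter, outlier spots, spot summary, floor and fold.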

Additional observations from a re-analysis of the deposited data

How the results depend on the processing

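Across 16 alternative processings, miR-106b, miR-19b, miR-25 and miR-92a kept the sign of their differences, and miR-19a kept its in the 15 that gave a value, from 0.20 to 1.07. The count of members at least 2-fold higher was 1 (miR-19a) where a single spot well above background made a probe detected, and the count at least 2-fold lower was 1 (miR-92a) with the 75th percentile over all mouse probes. At a 1.5-fold threshold 2 members were higher (miR-106b and miR-19b) and none lower. The members' median was -0.31 with the 75th percentile over all mouse probes, -0.27 over probes detected on either array, -0.072 with the median as scale, -0.20 with quantile normalization and 0.0099 with no scaling. The median of all miRNAs moved alongside, to -0.30, -0.26, -0.063, -0.12 and 0.019 in that order. Over all miRNAs, 23 were higher and 11 lower in the main processing, 10 and 29 with the 75th percentile over all probes, 11 and 28 over probes detected on either array, 16 and 19 with the median, 17 and 17 with quantile normalization and 17 and 15 with no scaling. They were 5 and 5 with normexp, 22 and 21 with the software's gene signal, 31 and 18 with a single spot enough for detection, and 43 and 24 at 1.5-fold. The software's gene signal detected 8 members in each window, and a single spot 7 at day 8-10 and 8 at day 2-4. Averaging spots before the floor and the log was chosen after seeing the data and changed no count of members. For the changed medians and counts the cause was not tested beyond the shift of scale. Most mouse probes were undetected, so the 75th percentile over all of them lies near or below the limit of detection. No paired analysis was possible because each window had 1 array. Members below the lowest detected probe (5.55 intensity units at day 8-10, 4.86 at day 2-4) have no measured order.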
